A study of Homo sapiens with 2 samples.

Results

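The nuclear-encoded subunits of the respiratory chain and ATP synthase were compared between Calu-3 cells with and without cyclic stretch. The genes were chosen by their symbols: NDUFA, NDUFB, NDUFC, NDUFS, NDUFV, UQCR, COX4I, COX5, COX6, COX7, COX8 and ATP5 as the start of the name, or SDHA, SDHB, SDHC, SDHD and CYC1 in full. The symbols picked 88 genes of 19775 named by probe sets for a single gene. Of these, 79 encode subunits (33 of complex I, 3 of complex II, 7 of complex III, 19 of complex IV and 17 of complex V). The other 9 are assembly factors that share the NDUFA prefix or the ATP synthase inhibitor ATP5IF1, and are described with the other mitochondrial genes. NDUFA4 and its paralog NDUFA4L2 carry the current symbols COXFA4 and COXFA4L2 and were counted in complex IV, where NDUFA4 is now placed. Subunits without a probe set for that gene alone were not analysed here.

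Calu-3 cells come from a human lung adenocarcinoma and serve as a model of airway epithelium. Per the labels, they reached about 80% confluence on plates with a flexible, collagen-coated base, in MEM containing 10% serum. For 18 h, stretch followed a sine wave from 0.7% to 20%, alternating 2 s of stretch with 2 s of rest, and the non-stretched culture carried the same 18 h label. Each condition was measured on 1 Affymetrix array from 1 RNA sample, so there is no replicate, no test between conditions and no error from culture to culture. Every difference below compares these 2 arrays.

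The respiratory chain moves electrons from NADH (complex I) and succinate (complex II) through coenzyme Q, complex III and cytochrome c to oxygen at complex IV. Complexes I, III and IV pump protons out of the mitochondrial matrix, and complex V uses the returning protons to make ATP. Most subunits are encoded in the nucleus and imported, while a small set at the membrane core of complexes I, III, IV and V is encoded by mitochondrial DNA. Some subunits have tissue-restricted isoforms, such as the heart and muscle forms of complex IV subunits.

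The arrays as a whole set the scale of what can be read. A signal was counted as above the floor if it exceeded the 50th percentile of its array (28.7 without and 28.4 with stretch), and a gene was called measured if it did so in at least 1 array. Where a gene had several probe sets, the brightest (by mean log2 signal over both arrays) stood for it. The 75th percentile of the stretched array lay 0.11 higher on the log2 scale and the median of 18 spike-in probe sets lay 0.11 lower, so shifts of this size depend on how the arrays are scaled. The ratio of 3' to 5' signal was 0.88 and 0.86 for GAPDH and 1.04 and 1.01 for ACTB without and with stretch. The SD of a single probe set's log2 difference was 0.36 over 5818 genes with several probe sets above the floor and 0.31 over the 31 subunits with several. Among probe sets above the 75th percentile of both arrays the SD was 0.22 over 2595 genes and 0.15 over 20 subunits. Each SD covers differences between probe sets and not between cultures. All 5 epithelial markers were above the floor in both arrays, and none of the 5 muscle markers was above it. None of the epithelial markers was 1.5-fold different, but 97.1% of all genes with a mean signal of 5000 or more, as theirs, lay within 1.5-fold. The fibroblast, endothelial and leukocyte lists had at most 2 members above the floor in either array. Of 5 airway markers, 3 were lower by 1.5-fold or more with stretch, against 16.7% of all measured genes. These were CFTR (5924 and 2199, -1.43), MUC1 (2093 and 767.4, -1.45) and FOXA1 (126.6 and 69.3, -0.87). The others were FOXA2 (102.1 and 84.3, -0.28) and KRT7 (8170 and 8718, 0.09), the brightest. The summed signal of the 5 was 16415 without and 11838 with stretch. Their part in the results below was not tested. In RNA from a whole culture, fewer cells of a type and less RNA per cell cannot be told apart.

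Across complexes I to V the subunits differed little between the arrays. Of the 79 subunits, 74 were measured, and 67 gave signals above 1000 in both arrays. No subunit was 2-fold higher or 2-fold lower by its brightest probe set, where 7.78% of all 13453 measured genes were 2-fold higher and 7.49% were 2-fold lower. A difference of 1.5-fold or more upwards was found in 7 of the 74 (9.46%), against 17.9% of all measured genes. Downwards it was found in 0 of the 74, against 16.7%. Within 1.5-fold lay 90.5% of the subunits and 65.4% of all measured genes. The differences leaned upwards: 55 of 74 lay above 0 (74.3%, against 50.5% of all measured genes), with a median log2 difference of 0.13 against 0.0050 for all measured genes. The count above 0 depends on scaling: it was 39 of 74 (all genes 42.8%) with the 75th percentiles made equal and 64 of 74 (all genes 59.2%) with the spike-ins made equal. The lowest difference was -0.37 and the largest 0.86.

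Bright probe sets differed less throughout the array, and most subunits were bright. Among all genes above the 90th percentile in both arrays, 9.87% were 1.5-fold or more higher, 6.69% were lower by as much and 55% lay above 0. Of the 67 subunits in that range, 6 (8.96%) were higher, 0 were lower and 52 (77.6%) lay above 0. The share of higher subunits lies close to that of genes of like brightness. The median over the bright genes was 0.04 and over these subunits 0.13. The brightness of a probe set also depends on its probes and says nothing about which subunit is the more abundant.

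**Figure D1:**
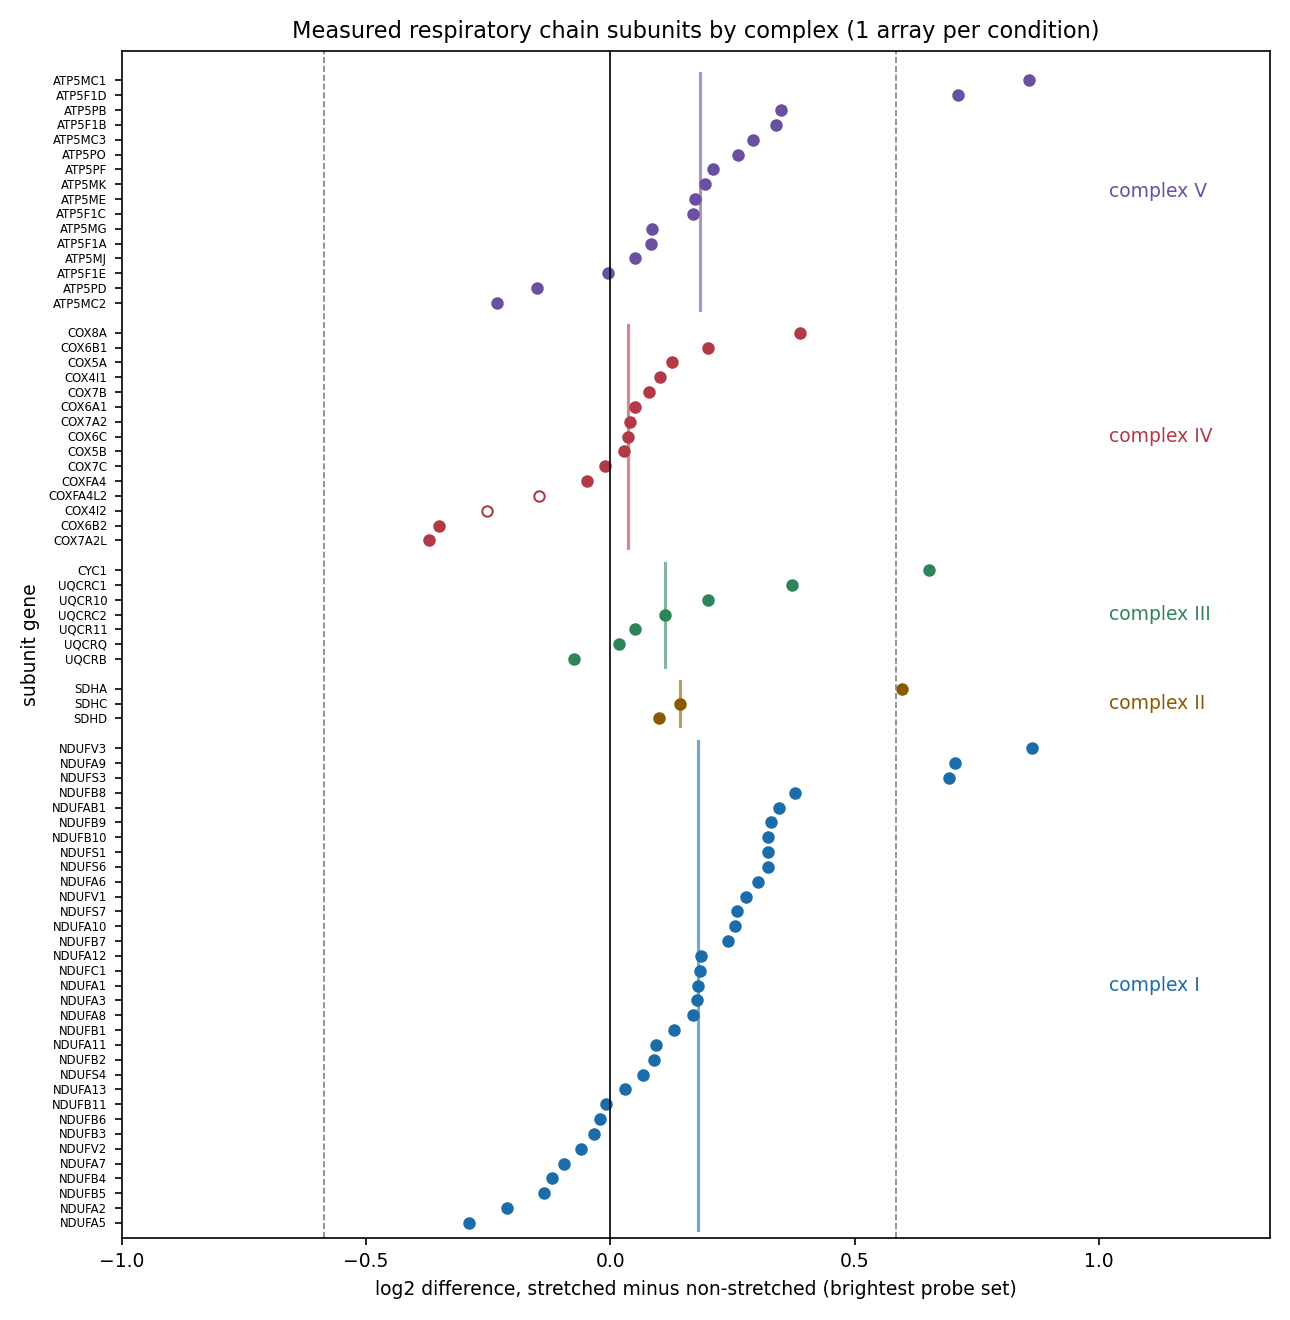
Log2 difference (stretched minus non-stretched, brightest probe set) of each of the 74 measured subunits, grouped and coloured by complex, with 1 array per condition and no error bars. Vertical bars give each complex's median, dashed lines mark 1.5-fold, and open circles are subunits above the floor in 1 array only; 7 subunits lie past the upper dashed line and none past the lower.

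The 7 subunits past 1.5-fold were spread over complexes I, II, III and V. NDUFV3, a small accessory subunit at the NADH-oxidising tip of complex I, had a signal of 500.6 without and 911.0 with stretch (1.82-fold). ATP5MC1, which encodes the proton-carrying c subunit of the ATP synthase rotor, went from 2329 to 4217 (1.81-fold). ATP5F1D, the delta subunit of the rotating central stalk, went from 1378 to 2259 (1.64-fold). The other 4 were closer to the threshold. NDUFA9, an accessory subunit near the quinone site of complex I, was at 1733 and 2828 (1.63-fold), and NDUFS3, a core subunit of the same region, at 2208 and 3571 (1.62-fold). CYC1, the cytochrome c1 of complex III that hands electrons to cytochrome c, was at 3932 and 6186 (1.57-fold). SDHA, the succinate-oxidising flavoprotein of complex II, was at 1891 and 2858 (1.51-fold) by a probe set ending in _x_at, which can bind related sequences such as the SDHA pseudogenes. Of the 7, ATP5F1D and NDUFV3 had a further probe set above the floor in both arrays. It gave 0.70 beside 0.71 on the log2 scale for ATP5F1D, and 0.55 beside 0.86 for NDUFV3. The other 5 rest on 1 probe set each. With the 75th percentiles of the arrays made equal, CYC1 and SDHA came to 0.55 and 0.49 on the log2 scale, under the 1.5-fold line, and the other 5 stayed past it.

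Upstream sequence is shown for the 4 of these 7 genes whose RefSeq promoter entry held 1 of 4 motifs tied in the literature to respiratory chain genes. The entries run from 250 bases before to 50 bases after the gene's start (GRCh38.p14) and were found for 67 of the 79 subunits and 5 of the 7. The motifs were searched on both strands: the palindrome-like NRF1 core, CCGGAAG for ETS factors such as GABP, AAGATGGC for YY1 and TGACGTCA for CREB-type factors. The lines give the 250 bases before the start, 5' to 3' on the gene's strand, with matches in capitals.
NDUFA9, chr12:4648864-4649113, plus strand: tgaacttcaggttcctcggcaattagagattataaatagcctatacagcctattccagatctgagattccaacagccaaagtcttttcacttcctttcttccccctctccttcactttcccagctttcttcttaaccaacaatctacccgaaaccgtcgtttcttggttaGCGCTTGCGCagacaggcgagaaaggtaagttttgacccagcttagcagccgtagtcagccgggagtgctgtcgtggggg
NDUFS3, chr11:47578824-47579073, plus strand: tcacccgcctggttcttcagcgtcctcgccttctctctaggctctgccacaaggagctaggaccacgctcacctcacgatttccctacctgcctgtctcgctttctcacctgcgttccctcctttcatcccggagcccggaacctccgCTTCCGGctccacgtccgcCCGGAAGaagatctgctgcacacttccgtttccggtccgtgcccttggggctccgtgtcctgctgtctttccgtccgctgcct
SDHA, chr5:218070-218319, plus strand: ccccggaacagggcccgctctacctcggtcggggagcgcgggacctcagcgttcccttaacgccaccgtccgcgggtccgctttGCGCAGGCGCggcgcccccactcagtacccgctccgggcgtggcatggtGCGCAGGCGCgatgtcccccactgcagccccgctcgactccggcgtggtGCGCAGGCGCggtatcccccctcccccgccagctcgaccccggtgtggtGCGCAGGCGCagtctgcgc
ATP5MC1, chr17:48892537-48892786, plus strand: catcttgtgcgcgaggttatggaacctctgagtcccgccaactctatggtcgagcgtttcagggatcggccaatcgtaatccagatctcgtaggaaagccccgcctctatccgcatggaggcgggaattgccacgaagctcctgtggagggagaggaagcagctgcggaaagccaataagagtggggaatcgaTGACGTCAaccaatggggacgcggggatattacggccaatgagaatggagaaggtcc

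NDUFA9 has an NRF1 match whose first base lies 80 bases before the start, and a YY1 match just downstream of the printed part. NDUFS3 has a pair of ETS matches, SDHA has 4 NRF1 matches, and ATP5MC1 has a CREB-type match that begins 57 bases before the start. Over all 67 subunits with an entry, the NRF1 motif was present in 16 (23.9%), against 9.66% of 15842 protein-coding genes. The ETS motif was present in 28.4% of the subunits against 16.5% of all genes, the YY1 motif in 16.4% against 4.66%, and the CREB-type motif in 4 of 67 subunits against 475 of 15842 genes. The median log2 difference was 0.17 for the 15 measured subunits with the NRF1 motif and 0.09 for the 49 without. For ETS it was 0.10 with and 0.13 without, and for YY1 0.26 (11 subunits) with and 0.09 (53 subunits) without. For the CREB-type motif the medians were 0.21 (4 subunits) and 0.11 (60 subunits). None of these gaps was tested, and a match of letters is not a binding site.

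Complex I, which oxidises NADH, had a median log2 difference of 0.18 over its 33 subunits. Of these, 24 lay above 0 (72.7%, against 50.5% of all measured genes) and 3 were 1.5-fold or more higher (9.09%, against 17.9%). All 3 belong to the matrix arm, where NADH is oxidised (N module) and coenzyme Q is reduced (Q module). The 10 N module subunits had a median of 0.23, the 4 Q module subunits 0.48, and the 18 subunits of the membrane arm 0.15. The membrane arm ran from -0.14 (NDUFB5, 5693 and 5182) to 0.38 (NDUFB8, 2186 and 2841), and none of its subunits was 1.5-fold different. Within 1.5-fold lay 70.3% of all genes with mean signals of 1000 to 2500 and 82.8% of those from 2500 to 5000. The median non-stretched signal was 3343 in the membrane arm, 3188 in the N module and 1917 in the Q module. The modules thus differ in brightness as well, and the gaps between them were not tested. The NADH-binding flavoprotein NDUFV1 was at 2866 and 3474 (0.28) and its iron-sulfur partner NDUFV2 at 4553 and 4368 (-0.06). NDUFS1, the largest iron-sulfur subunit, was at 1107 and 1384 (0.32), and NDUFS7, which carries the last iron-sulfur cluster before coenzyme Q, at 507.0 and 606.7 (0.26). The lowest of the complex were the accessory subunits NDUFA5 (2101 and 1719, -0.29) and NDUFA2 (4432 and 3828, -0.21), followed by NDUFB5 and by NDUFB4 (5981 and 5502, -0.12). None of these 4 differs by more than the SD of a single subunit probe set above the floor (0.31). NDUFA5 and NDUFA2 exceed the SD of 0.15 for subunit probe sets above the 75th percentile, where all 4 lie.

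Complex II, the succinate dehydrogenase that also works in the TCA cycle, had 3 subunits analysed, all above 0 (all measured genes 50.5%). Beside SDHA, the membrane anchor subunits SDHC (2340 and 2582, 0.14) and SDHD (2960 and 3170, 0.10) were nearly equal. SDHC has 7 probe sets, of which 6 were above the floor in both arrays, and these ranged from -0.68 to 0.39. The sign of the complex's median depends on the probe sets read: without those ending in _x_at or _s_at, SDHA drops out and the median of the 2 genes left is -0.04.

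Complex III passes electrons from coenzyme Q to cytochrome c. Its 7 subunits had a median of 0.11, with 6 above 0 (85.7%, against 50.5% of all measured genes). The matrix-facing core proteins UQCRC1 and UQCRC2 were at 4259 and 5515 (0.37) and at 3708 and 4007 (0.11). The small subunits were nearly equal in the 2 arrays: UQCRQ was at 6996 and 7080 (0.02), UQCR11 at 3823 and 3962 (0.05), UQCRB at 4022 and 3819 (-0.07) and UQCR10 at 5584 and 6413 (0.20). Other probe sets of UQCR10 and UQCR11, each more than 10 times dimmer, gave 0.75 and 0.82.

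Complex IV, the cytochrome c oxidase, had a median of 0.04 over its 15 measured subunits. Of these, 9 lay above 0 (60%, against 50.5% of all measured genes) and none was 1.5-fold different in either direction. Within 1.5-fold lay 82.8% of all genes with mean signals of 2500 to 5000 and 97.1% of those at 5000 or more. Most of these subunits were that bright, so the lack of 1.5-fold differences is shared with other bright genes. Against each other the medians of the complexes were not tested, and that of complex IV became -0.07 with the 75th percentiles made equal and 0.20 with each gene's dimmest probe set above the floor. COX4I1, the ubiquitous form of the regulatory subunit IV, was at 7643 and 8200 (0.10), and COX5A at 5200 and 5674 (0.13). COX8A was the highest (4576 and 5992, 0.39), followed by COX6B1 (4188 and 4812, 0.20), while COX6A1 (7156 and 7411, 0.05), COX7A2 (6103 and 6275, 0.04) and COXFA4 (5134 and 4966, -0.05) were nearly equal. The lowest was COX7A2L (4979 and 3850, -0.37), a factor that helps join complexes III and IV into supercomplexes, read by 1 probe set. Its distance from 0 is about the SD of a single probe set above the floor (0.36 over all genes). It exceeds the SD above the 75th percentile (0.22 over all genes and 0.15 over subunits), where this probe set lies.

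The tissue-restricted isoforms of complex IV gave signals near or below the floor. The heart and muscle forms COX6A2 and COX7A1, COX7B2 and the testis form COX8C were below the floor in both arrays. COX4I2, the lung and hypoxia-linked form of subunit IV, was at 33.8 without stretch and 17.0 with stretch, and COXFA4L2, a hypoxia-induced relative of COXFA4, at 31.4 and 13.8, so both passed the floor without stretch and not with it. The testis form COX6B2 was above the floor in both arrays, at 53.2 and 41.8. For these signals near the floor no direction was read gene by gene. In each of these pairs the ubiquitous partner was far above the floor in both arrays. COX4I2, COXFA4L2 and COX6B2 still enter the medians and counts given above, each as a value below 0. With the 75th percentile as the floor they drop out. Complex IV then had 12 subunits with a median of 0.05, and 55 of 71 subunits of all complexes lay above 0.

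**Figure D2:**
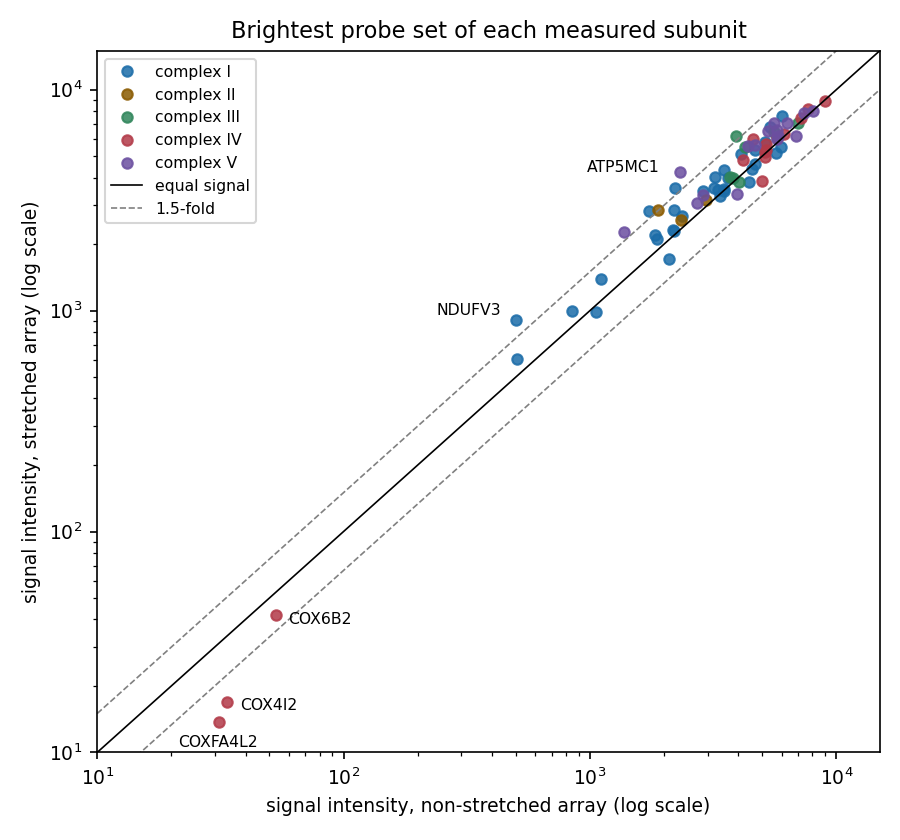
Signal intensity of the brightest probe set of each measured subunit in the non-stretched (x) and stretched (y) arrays, both on log scales, with 1 point per gene coloured by complex. Most points lie above 1000 and between the dashed 1.5-fold lines, and the isoforms COX6B2, COX4I2 and COXFA4L2 lie near the floor of 28.7 and 28.4.

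Complex V, the ATP synthase, had a median of 0.18 over 16 measured subunits. Of these, 13 lay above 0 (81.25%, against 50.5% of all measured genes) and 2 were 1.5-fold or more higher (12.5%, against 17.9%). In the catalytic F1 head, the beta subunit ATP5F1B was at 5585 and 7069 (0.34), the alpha subunit ATP5F1A at 7398 and 7836 (0.08) and the gamma subunit ATP5F1C at 6307 and 7096 (0.17). The 3 probe sets of ATP5F1C above the floor in both arrays lay between 0.17 and 0.21. ATP5F1E, the epsilon subunit next to ATP5F1D in the central stalk, was at 8056 and 8031 (-0.0045) by its brightest probe set. Of the peripheral stalk, ATP5PB was at 4384 and 5584 (0.35) and ATP5PD at 6875 and 6197 (-0.15). The membrane subunits ran from 0.05 (ATP5MJ, 5766 and 5969) to 0.19. The other ATP5MJ probe set, less than 10 times dimmer, was at 778.1 and 1275 (0.71). The probe set that lists ATP5MF alone was below the floor in both arrays, and probe sets that list it with another gene were not used, so nothing is read about its level.

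The c subunit is encoded by 3 genes, ATP5MC1, ATP5MC2 and ATP5MC3, whose products differ in the import sequence that is cut off and share the mature protein. Their brightest probe sets gave 3 different values. ATP5MC1 was 0.86 higher on the log2 scale, ATP5MC3 was at 5288 and 6471 (0.29) and ATP5MC2 at 3940 and 3355 (-0.23). ATP5MC1 and ATP5MC2 thus lay 1.09 apart and ATP5MC1 and ATP5MC3 0.57 apart. These gaps carry the error of a pair of probe sets and were not tested. The other probe sets of ATP5MC3 gave 0.38 and 0.68, the latter nearer to ATP5MC1. The brightest probe sets of ATP5MC1 and ATP5MC2 end in _s_at, so some binding to related transcripts is possible.

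The core subunits, which bind cofactors or form the centre of complexes I, II, III and V, had a median of 0.27 over 14 genes. Of these, 13 lay above 0 (92.9%, against 50.5% of all measured genes). NDUFV2 was the exception. The 60 measured accessory subunits and isoforms had a median of 0.09, with 42 above 0 (70%). All measured complex IV subunits are in this second group, including COX4I2, COXFA4L2 and COX6B2, whose values near the floor lay below 0. The groups therefore also differ by complex. The difference between the groups was not tested.

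Different probe sets of a subunit gave different sizes of change where the second was dim. For 31 subunits at least 2 probe sets passed the floor on each array, which makes 50 comparisons with the brightest. In 29 of these the other probe set was less than 10 times dimmer in the non-stretched array, and its difference exceeded the brightest's by a median of 0.02. In the remaining 21 it was at least 10 times dimmer and exceeded it by a median of 0.32, with 15 of the 21 higher. The largest were in COX5A (77.9 and 221.4, 1.51, beside 0.13), COX4I1 (34.6 and 95.4, 1.46, beside 0.10) and NDUFA7 (42.4 and 114.9, 1.44, beside -0.10). The dim probe set of COX6A1 was at 0.80 beside 0.05. In the other direction, the dimmest NDUFB8 probe set was at 53.2 and 31.5 (-0.76) beside 0.38, while the middle of its 3 probe sets was at 0.48. Over all genes, 1895 such dim probe sets exceeded the brightest of their gene by a median of 0.31, a value close to that of the subunits. Which part of each transcript the dim probe sets bind is not given in the sources used here.

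**Figure D3:**
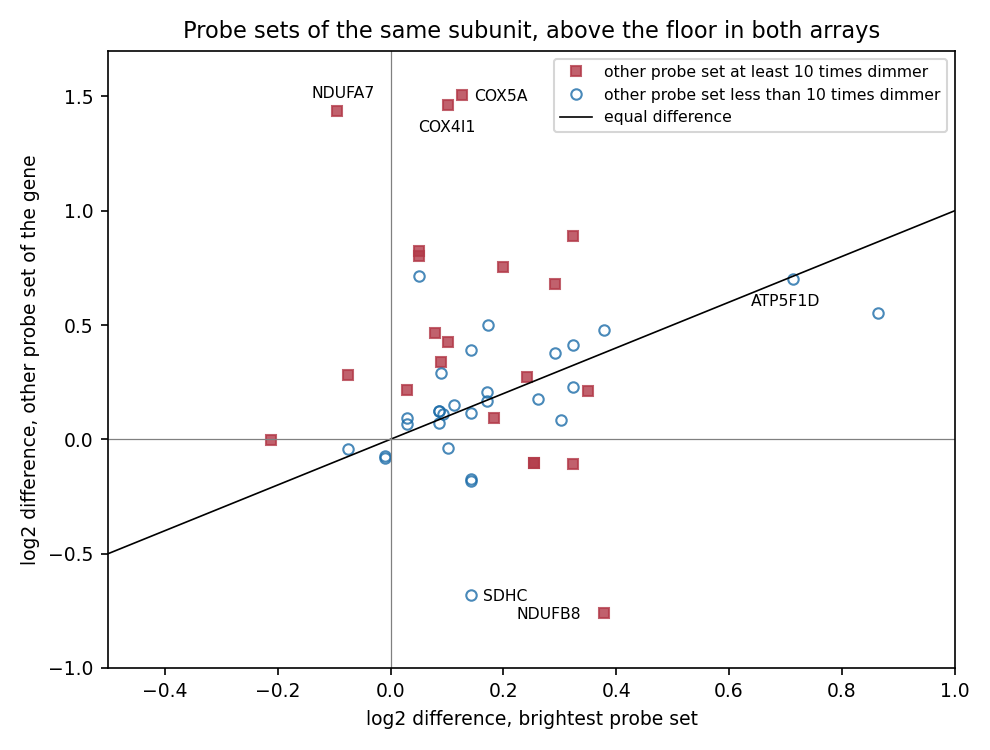
Log2 difference of the brightest probe set (x) against that of each other probe set of the same subunit (y), for the 50 comparisons above the floor in both arrays, with 1 array per condition. Filled squares are probe sets at least 10 times dimmer and scatter widely, up to 1.51 for COX5A and down to -0.76 for NDUFB8, while open circles keep nearer to the line of equal difference.

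The subunits encoded by mitochondrial DNA lay close to equal as well. Of the 7 measured, all were above 0 (all measured genes 50.5%) and none was 1.5-fold different, with a median of 0.08. Within 1.5-fold lay 65.4% of all measured genes, and 97.1% of the 412 with a mean signal of 5000 or more. Most of the 7 were that bright, so the lack of 1.5-fold differences is shared with other bright genes. COX3 was at 4972 and 5624 (0.18), COX2 at 10552 and 11387 (0.11), ATP6 at 6077 and 6328 (0.06), ND2 at 5345 and 5635 (0.08) and ND4 at 8763 and 8779 (0.0025). ND6, from the other strand of the mitochondrial genome, was at 159.7 and 188.8 (0.24).

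Genes that build and supply the chain were higher more often than its subunits were. Over 11 lists of assembly factors, cytochrome c, coenzyme Q synthesis, TCA cycle, mitochondrial DNA upkeep, import and carriers, 52 of 133 measured genes (39.1%) were higher by 1.5-fold or more and 4 (3.01%) lower by as much, against 17.9% and 16.7% of all measured genes. Their median was 0.40. The probe sets of these genes were dimmer, with a median non-stretched signal of 980.4 against 3981 for the subunits. At mean signals under 1000, the 6 subunits had a median of 0.05 (1 higher), the 61 list genes 0.54 (30 higher) and all 9685 genes -0.02 (19.6% higher). From 1000 to 2500, the 12 subunits had a median of 0.21 (3 higher), the 47 list genes 0.35 (18 higher) and all 2352 genes 0.06 (17.4% higher). From 2500 to 5000, the 29 subunits had a median of 0.17 (3 higher), the 19 list genes 0.34 (4 higher) and all 1004 genes 0.02 (9.46% higher). At 5000 or more, 0 of 27 subunits and 0 of 6 list genes were 1.5-fold different. Of all 412 genes this bright, 97.1% lay within 1.5-fold, so these counts set neither group apart. The lists were put together with earlier results of these arrays known, and their difference from the subunits was not tested.

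Assembly factors insert cofactors and join subunits. Of 19 for complex I, 7 were higher by 1.5-fold or more (all measured genes 17.9%), with none as much lower (all measured genes 16.7%), and the median was 0.42. NDUFAF6 was at 535.0 and 1095 (1.03), NDUFAF4 at 1694 and 3271 (0.95), NDUFAF5 at 291.3 and 526.2 (0.85) and NDUFAF2 at 1169 and 2010 (0.78). SDHAF1 for complex II was at 323.6 and 625.5 (0.95), with a second probe set at 1.20. All 6 factors of complex III lay above 0, with UQCC3 at 690.1 and 1215 (0.82) and the Rieske protein inserter BCS1L at 600.0 and 1004 (0.74). For complex V, FMC1 was at 0.98 and TMEM70, a c-ring assembly factor, at 0.92 in its brightest probe set, with its other probe sets from -0.08 to 1.38. The inhibitor ATP5IF1 was at 2210 and 2573 (0.22). Complex IV assembly factors had a median of 0.16, with 6 of 24 higher by 1.5-fold or more (25%) and 1 lower. COA7 was at 523.9 and 1119 (1.10), and the copper chaperone COX11 at 872.1 and 1577 (0.85), with its other probe sets down to 0.11. SCO1, also a copper chaperone, was at 0.78, and COX19 at 229.5 and 120.7 (-0.93).

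Genes of mitochondrial DNA replication and transcription had the highest median of the lists with more than 10 measured genes. All 13 lay above 0 (all measured genes 50.5%), 9 were higher by 1.5-fold or more (all measured genes 17.9%), and the median was 0.65. The nuclease MGME1 was at 174.8 and 484.5 (1.47), TFAM, which packages mitochondrial DNA and starts its transcription, at 1038 and 2196 (1.08), MTERF3 at 1.08 and the RNA polymerase POLRMT at 279.2 and 545.8 (0.97). The 7 mitochondrial transcripts above did not differ 1.5-fold beside them.

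Import genes, which bring the nuclear-encoded subunits into the organelle, had a median of 0.52, with 10 of 22 higher by 1.5-fold or more and none as much lower, against 17.9% and 16.7% of all measured genes. The import pore TOMM40 was at 519.0 and 1733 (1.74), the presequence protease subunit PMPCA at 523.5 and 1229 (1.23) and GRPEL1 at 1.18. TIMM50 was at 1282 and 2699 (1.07), with its other probe set at 1.95. Of 14 measured TCA cycle and pyruvate dehydrogenase genes, 6 were higher by 1.5-fold or more and none as much lower (median 0.40), beside the same shares over all genes. IDH3B was at 1077 and 1983 (0.88) and DLST at 1261 and 1994 (0.66). IDH3A was at 0.74 (its other probe sets up to 2.05) and OGDH at 0.68 (its other probe sets down to -1.10). Cytochrome c (CYCS) was at 6131 and 7531 (0.30) by its brightest probe set, with its other probe sets up to 1.91. Its haem lyase HCCS was at 1207 and 2163 (0.84), with its other probe set at 0.30.

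**Figure D4:**
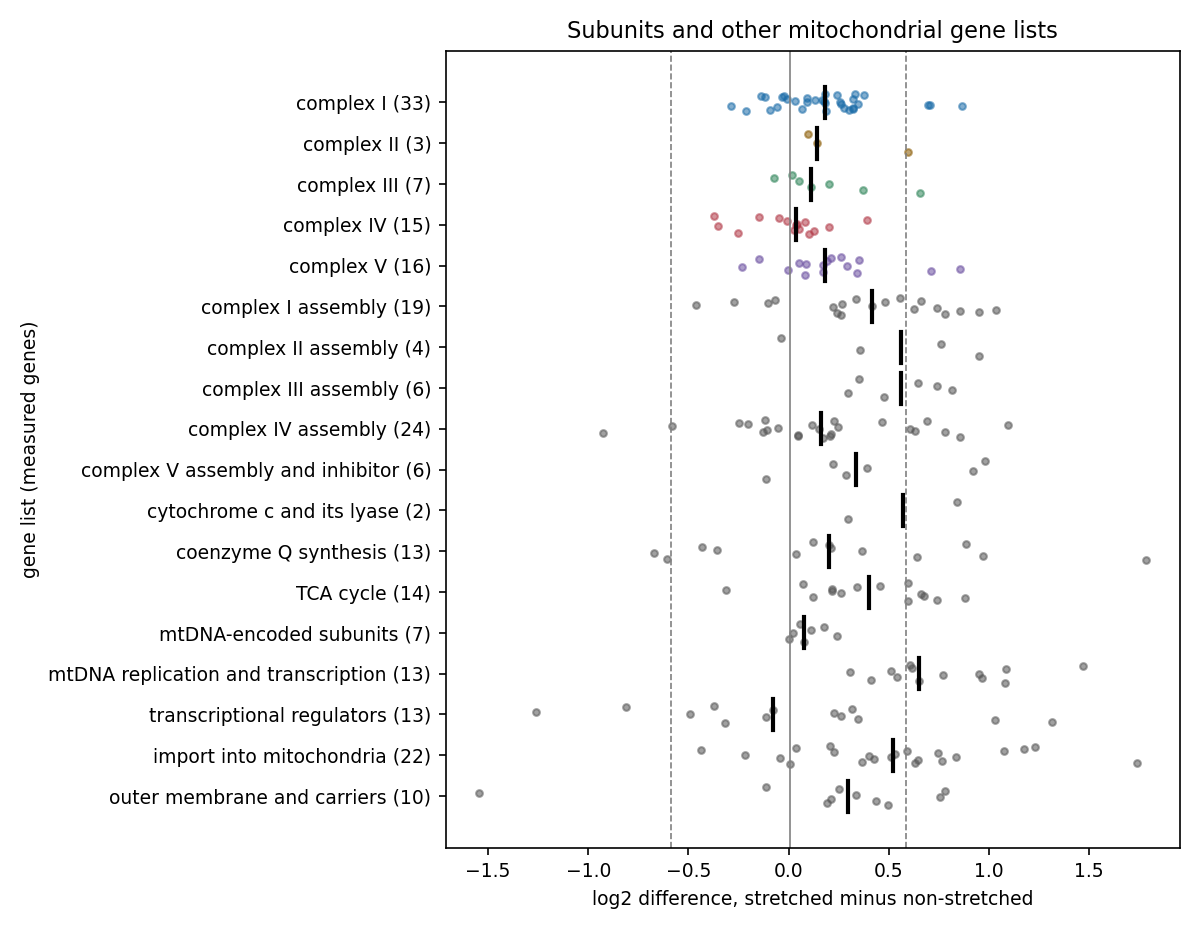
Log2 difference (stretched minus non-stretched) of each measured gene in the 5 complexes and in 13 other mitochondrial gene lists, with the number of genes in brackets and 1 array per condition. Black bars are medians, the solid grey line is the median of all measured genes (0.0050) and the dashed lines mark 1.5-fold; the complexes lie between 0.04 and 0.18, and mitochondrial DNA replication and transcription at 0.65.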

How the data were processed

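Total RNA (6 µg per sample, per the labels) was turned into biotin-labelled cRNA and hybridised to 1 Affymetrix array per condition. For each array the authors deposited a linear signal intensity for every probe set. How it was summarised and scaled is not given in the sources used here. The number of arrays limits the precision, and no depth applies.

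Of 54613 non-control probe sets, 41037 were named by a single gene with a current RefSeq symbol, 54 by an older symbol, while 1801 with several genes and 11721 unnamed here stayed out. Signals as deposited were converted to log2, set to the 50th percentile of the array where lower, and subtracted (stretched minus non-stretched) with Python 3.11.15 and pandas 2.3.3. Higher or lower means at least 1.5-fold or 2-fold. No test was run. Of 2 pseudogenes and 3 non-coding RNAs that the prefixes match, none was used. The computation was tested on simulated data.

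Named subunits are the 4 highest and 4 lowest of each complex, those at least 1.5-fold different, the catalytic core, isoform groups, and those with discordant probe sets. Up to 4 genes were named per list, beside a few chosen after their values were seen (CYCS, HCCS, ATP5IF1, ND and COX genes, the airway markers, PDSS2, GABPA, NRF1, PPARGC1A). The members and lists were chosen with earlier results of these data known.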

Additional observations from a re-analysis of the deposited data

How the results depend on the processing

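Making the 75th percentiles of the arrays equal gave a median log2 difference of 0.021 for all subunits, 0.073 for complex I and -0.072 for complex IV, whose sign turned. Centred on the spike-ins, it was 0.24 for all subunits, 0.29 for complex I and 0.30 for complex V. With the mean of a gene's probe sets it was 0.19 for all subunits and 0.37 for complex III. With _x_at and _s_at probe sets left out it was 0.20 for all subunits, 0.37 for complex III and -0.041 for complex II, whose sign turned as SDHA was left out, and 1 subunit was 2-fold higher. With plain _at probe sets only, the values were 0.20, 0.37, -0.041 and 1. With no floor, 3 subunits were at least 1.5-fold lower, 1 was 2-fold higher and 2 were 2-fold lower, because signals below the floor enter. Counting every prefix match, 13 of 83 genes were at least 1.5-fold higher and 1 was 2-fold higher, since assembly factors enter. Of all measured genes, 17.9% and 7.78% were as much higher. In an alternative added after seeing the data, each gene's dimmest probe set above the floor gave 0.37 for complex III and 0.20 for complex IV. The median of all subunits stayed above 0 in each setting, and above the median of all genes by 0.09 to 0.18. Centring the arrays shifts every gene alike, so in those settings the gap of 0.12 was fixed in advance. In the bright-gene settings bright subunits were set against all genes, bright or not. Of the 140 summary values recomputed, 117 stayed within their tolerance. That is 1.5 times for a count. For a median it is the sampling error from the SD of a single probe set above the floor (0.36 over all genes). No subunit called 1.5-fold changed sign. Among single subunits, 16 of 426 values moved by more than that SD, 14 of them upwards. No paired analysis was possible because each condition has 1 array, and for the same reason no sample could be left out.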

Other observations

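Genes that steer or bypass the chain included differences past 2-fold in both directions. Of 13 measured transcriptional regulators, 2 were higher and 2 lower by 1.5-fold or more (median -0.08). Each count is 15.4% of the list, against 17.9% of all measured genes higher and 16.7% lower. The regulators thus differed about as often as genes in general. The coactivators PPARGC1B and PPRC1 were at 69.4 and 173.0 (1.32) and at 309.4 and 631.1 (1.03) without and with stretch, with other PPARGC1B probe sets down to 0.36. The nuclear receptors ESRRG and PPARA were at -1.26 (to a signal below the floor, so a bound) and at 801.7 and 456.6 (-0.81). The other PPARA probe sets ran up to 0.03. NRF1 was at 0.35, GABPA at -0.11 and PPARGC1A near the floor.

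Among 10 measured outer membrane channels and carriers (median 0.29), UCP2, an uncoupling protein family member of the inner membrane, was lower at 915.1 and 313.9 (-1.54), with its other probe set at -1.33. SLC25A11 and SLC25A4, the oxoglutarate and an ADP/ATP carrier, were at 0.78 and 0.76. Of 13 coenzyme Q synthesis genes (median 0.20), 4 were higher and 2 lower by 1.5-fold or more. These are 30.8% and 15.4%, against 17.9% and 16.7% of all measured genes, so the lower share is close to that of all genes. PDSS1, which makes the isoprenoid tail, was at 379.9 and 1309 (1.79) and its partner PDSS2 at 901.2 and 592.4 (-0.61), with the other PDSS2 probe set at 0.16. COQ3 was at 0.97, COQ10A at 117.9 and 217.9 (0.89) and COQ5 at -0.67.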
